A study of Drosophila melanogaster with 27 samples.

Results

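The genes described here encode the voltage-gated sodium and calcium channels of the fly together with the sodium leak channel. They were listed as 10 genes and looked up by FlyBase identifier in a count table of 17529 genes, where 9 were found: *para* (FBgn0285944), *NaCP60E* (FBgn0085434), *tipE* (FBgn0003710), *cac* (FBgn0263111), *Ca-alpha1D* (FBgn0001991), *Ca-alpha1T* (FBgn0264386), *stj* (FBgn0261041), *na* (FBgn0002917) and *unc80* (FBgn0039536). *Ca-beta* was not matched to an identifier of the table and is given no value. All 9 genes found passed the filter on low counts, as did 12921 genes in all. Their annotated exons add up to between 4.08 kb (*tipE*) and 16.3 kb (*para*), against a median of 1.73 kb over protein-coding genes. *para*, *cac*, *Ca-alpha1T* and *na* lie on chromosome X, *NaCP60E* and *stj* on arm 2R, *Ca-alpha1D* on arm 2L, *tipE* on arm 3L and *unc80* on arm 3R.

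Voltage-gated sodium channels open when the membrane depolarises and carry the upstroke of the action potential. Voltage-gated calcium channels turn that depolarisation into calcium entry, and at synapses this entry triggers transmitter release. The sodium leak channel conducts at rest and sets how far a neuron sits from threshold. TDP-43 is an RNA-binding protein that is mislocalised and aggregated in ALS and FTD.

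RNA came from heads of flies aged 1 to 3 days, males and females pooled, in which a split-GAL4 driver for Kenyon cells, the intrinsic mushroom body neurons (MBNs), expressed a YFP protein. The TDP-43 WT flies (WT below, which does not mean flies without a transgene) carried UAS TDP43WT-YFP and the TDP-43 G298S flies (G298S below) UAS TDP43G298S-YFP, each with UAS mCD8-RFP, a red membrane marker. The YFP flies, the control, carried UAS-2XEYFP and no mCD8-RFP, so the marker and TDP-43 cannot be told apart in any comparison with YFP. According to the paper, which does not show the data, the control protein was also much more abundant than cytoplasmic TDP-43 YFP. Its authors found the part played by YFP itself hard to judge for that reason. Each genotype had 3 lysates, namely WT-502, WT-505 and WT-202, G298S-203, G298S-503 and G298S-506, and YFP-901, YFP-902 and YFP-201, and each lysate gave an immunoprecipitate on GFP-Trap beads (IP), an unbound fraction and an input, hence 27 libraries. Numbers starting with 5 share one label prefix, which holds no YFP lysate, those starting with 9 share another, which holds only YFP, and the third prefix holds WT-202, G298S-203 and YFP-201. The prefix and the genotype can be separated only within the third, which has 1 lysate per genotype.

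Total counts ranged from 1848426 to 16763149 in the IPs, from 11759327 to 58157031 in the unbound fractions and from 16845284 to 157035496 in the inputs. The G298S-503 IP was the shallowest library, and the lowest count of any member there was 33 (*unc80*). The labels name Kenyon cells, but the input is whole head. Summed over 8 Kenyon cell markers, none of them at 0, the inputs held 652 to 1104 CPM (counts scaled for library depth by TMM) in WT, 957 to 1006 in G298S and 320.5 to 454 in YFP. Summed over 7 photoreceptor markers, the inputs held 13190 to 20450 CPM in WT, 10710 to 11790 in G298S and 21440 to 27880 in YFP. For comparison, *dlp*, which encodes the glypican Dally-like protein, was 11.8-fold higher in the IP than in the input in WT (log2FC 3.56, SE 0.28), 8.07-fold in G298S (log2FC 3.01, SE 0.28) and 1.69-fold in YFP (log2FC 0.76, SE 0.26). *futsch*, which encodes a microtubule-associated protein, had log2FCs of 2.38 (SE 0.31), 1.53 (SE 0.31) and 1.58 (SE 0.31) in the same order. The paper named *dlp* as a target from these same libraries and from RT-qPCR of IPs, so its values here are not an independent check. Against the enrichment in YFP, *dlp* was called higher in WT and G298S (log2 differences 2.80 and 2.25). *futsch* was not (0.80, SE 0.42, and -0.05, SE 0.42), so it did not separate TDP-43 from YFP.

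To determine which channel mRNAs were recovered on the beads, each IP was compared with its input. With TMM scaling of these libraries, more channel mRNAs passed the threshold in the YFP control than in either TDP-43 genotype. *cac* was the most enriched member in all 3. That order of counts did not hold under every processing or with the unbound fraction as reference, as given below. No member was called as differing in enrichment between TDP-43 and YFP. The set called in WT was *para*, *cac*, *Ca-alpha1D*, *stj* and *na*, that in G298S was *para*, *cac*, *stj* and *na*, and that in YFP held every member but *stj* and *unc80*. Thus 5 of 9 members were enriched in WT, against 10.5% of all genes tested, 4 of 9 in G298S, against 7.39%, and 7 of 9 in YFP, against 10.3%. Enriched means a log2FC above 1 at an adjusted *p* below 0.05 in edgeR's quasi-likelihood test, with Benjamini-Hochberg adjustment over all genes. The median log2FC of the members was 1.31 in WT, 0.81 in G298S and 1.46 in YFP, beside medians of -0.09, -0.16 and -0.14 over all genes. No member was called lower in any IP, and at an unadjusted *p* below 0.05 none was lower either, while 7, 6 and 8 were higher, where 36.8%, 33.4% and 36.2% of all genes passed in either direction.

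**Figure D1:**
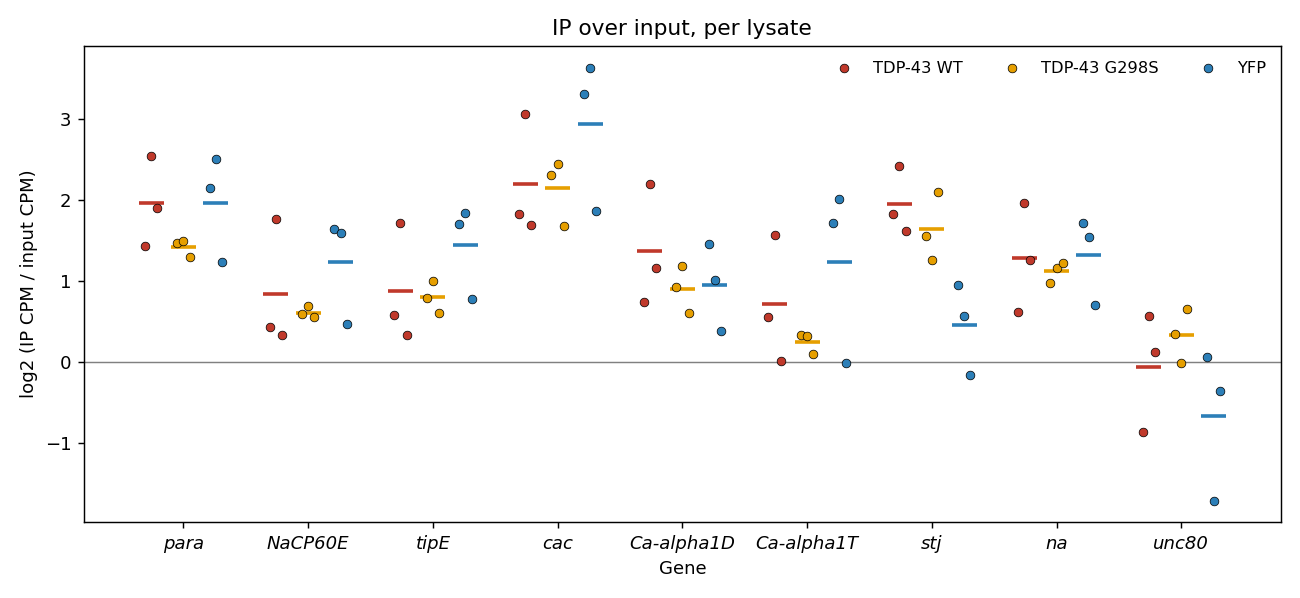
Log2 ratio of IP CPM to input CPM (y axis) for each of the 9 genes (x axis), 1 point per lysate and a bar at the mean of 3 lysates, for WT, G298S and YFP. For *stj* all TDP-43 lysates (1.26 to 2.42) lie above all YFP lysates (-0.16 to 0.96), whereas for *cac* the YFP lysates reach 3.64.

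*para* encodes the main voltage-gated sodium channel of fly neurons. Its IPs held 116, 114 and 47.0 CPM in WT-502, WT-505 and WT-202, against 19.8, 30.2 and 17.3 CPM in the inputs. The IPs of G298S-503, G298S-506 and G298S-203 held 85.7, 78.1 and 66.5 CPM, against 30.3, 31.8 and 24.03 CPM in the inputs. The IPs of YFP-901, YFP-902 and YFP-201 held 85.4, 44.96 and 61.4 CPM, against 14.9, 19.0 and 13.7 CPM in the inputs. Every IP was thus above every input of its genotype, and the IP levels of the 3 genotypes overlapped. The log2FC of IP over input was 1.99 (SE 0.32, adjusted *p* = 2.32e-04) in WT, 1.33 (SE 0.31, adjusted *p* = 0.0059) in G298S and 2.10 (SE 0.32, adjusted *p* = 2.57e-04) in YFP.

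*NaCP60E* encodes the second sodium channel alpha subunit of the fly, and *tipE* a membrane protein that raises the current through Para. For *NaCP60E* the IPs held 94.2 to 187 CPM in WT, 113 to 136 in G298S and 67.5 to 142 in YFP, against inputs of 55.0 to 94.1, 75.1 to 84.3 and 35.6 to 48.7 CPM in the same order. Both genes were called only in the YFP IP. The log2FC of *NaCP60E* was 1.37 (SE 0.28) in YFP, beside 0.82 (SE 0.28) in WT and 0.53 (SE 0.28) in G298S. That of *tipE* was 1.601 (SE 0.30) in YFP, beside 0.85 (SE 0.30) in WT and 0.73 (SE 0.30) in G298S. The differences of these values from YFP were not called. Of the exonic bases of *tipE*, 19% (777) are shared with *CG18675* on the same strand, so its counts are less certain, and for *NaCP60E* (1.4%) and *Ca-alpha1D* (2.37%) the shared part is small.

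*cac* encodes the calcium channel alpha-1 subunit that drives transmitter release at fly synapses. Its IPs held 179, 111 and 77.2 CPM in WT-502, WT-505 and WT-202, against 21.3, 34.4 and 21.7 CPM in the inputs. The IPs of G298S-503, G298S-506 and G298S-203 held 155, 90.2 and 116 CPM, against 28.3, 28.1 and 23.2 CPM in the inputs. The IPs of YFP-901, YFP-902 and YFP-201 held 175, 57.8 and 117 CPM, against 14.02, 15.8 and 11.7 CPM in the inputs. The mean IP level was close in the 3 genotypes, at 122 ± 51.8, 120.2 ± 32.5 and 117 ± 58.7 CPM for WT, G298S and YFP (SD, n = 3 lysates each), while the YFP inputs were all below the TDP-43 inputs. Among the members *cac* had the highest log2FC in every IP, with 2.20 (SE 0.37, adjusted *p* = 3.85e-04) for WT, 2.09 (SE 0.37, adjusted *p* = 8.51e-04) for G298S and 3.17 (SE 0.39, adjusted *p* = 6.12e-05) for YFP.

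*Ca-alpha1D* encodes an L-type channel, which in fly larvae carries muscle and motor neuron dendritic calcium current, and *Ca-alpha1T* the T-type channel, which opens at low voltage. *Ca-alpha1D* had 94.2, 80.5 and 48.4 CPM in the IPs of WT-502, WT-505 and WT-202, against 20.5, 36.0 and 28.8 CPM in their inputs. Its log2FC was 1.33 (SE 0.26, adjusted *p* = 0.00102) in WT and 1.02 (SE 0.26, adjusted *p* = 0.00816) in YFP, and in G298S it was 0.81 (SE 0.26, adjusted *p* = 0.0316), short of the threshold of 1. *Ca-alpha1T* was called in YFP alone (log2FC 1.53, SE 0.39, adjusted *p* = 0.00974), and the YFP-902 lysate had a log2 ratio of -0.01 beside 2.01 and 1.71 in YFP-901 and YFP-201. Its log2FC was 0.66 (SE 0.38) in WT and 0.16 (SE 0.39) in G298S, the lowest of any member in G298S.

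*stj* encodes an alpha2delta subunit, which in fly neurons helps bring Cac to the presynaptic terminal. Its IPs held 148, 153 and 107 CPM in WT-502, WT-505 and WT-202, against 27.6, 49.7 and 30.1 CPM in the inputs. The IPs of G298S-503, G298S-506 and G298S-203 held 81.9, 123 and 95.1 CPM, against 34.1, 28.7 and 32.3 CPM in the inputs. The IPs of YFP-901, YFP-902 and YFP-201 held 36.0, 20.7 and 31.1 CPM, against 24.3, 23.1 and 16.0 CPM in the inputs. The lowest TDP-43 IP was thus above the highest YFP IP, and in YFP-902 the IP was below the input. The log2FC was 1.88 (SE 0.26, adjusted *p* = 7.06e-05) in WT and 1.57 (SE 0.26, adjusted *p* = 4.28e-04) in G298S, and in YFP it was 0.55 (SE 0.26, adjusted *p* = 0.13).

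**Figure D2:**
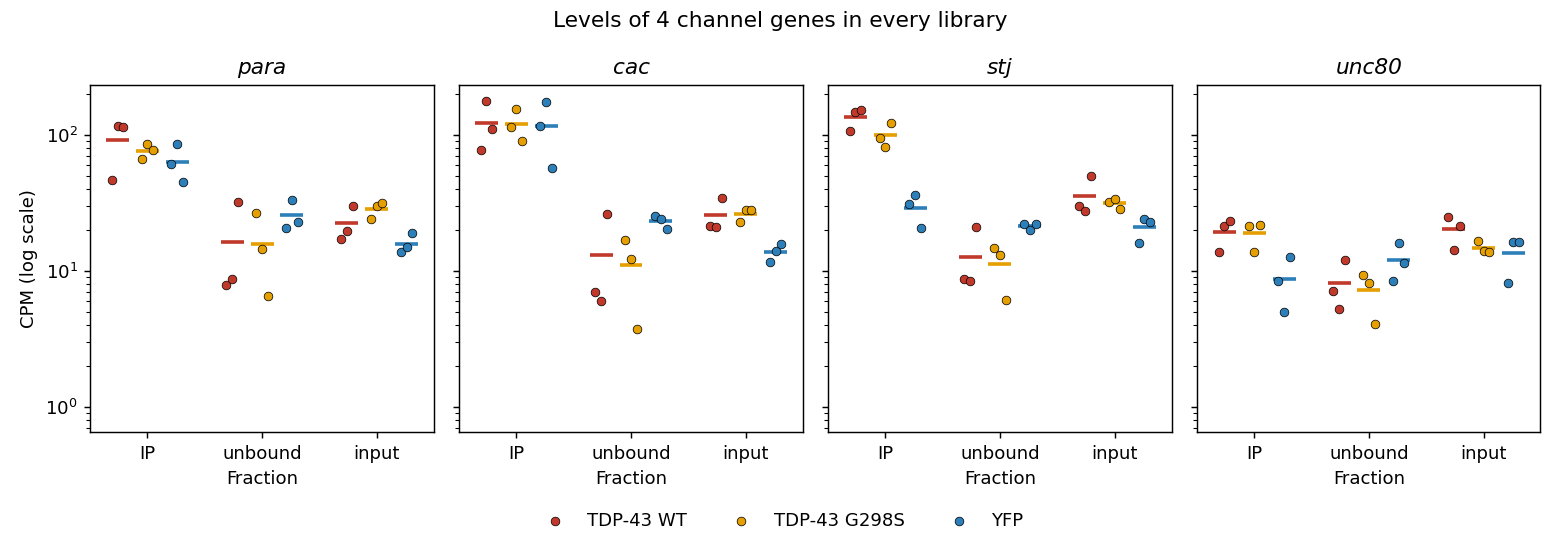
CPM on a log axis (y axis) of *para*, *cac*, *stj* and *unc80* in the IP, unbound and input libraries (x axis), 1 point per library and a bar at the mean of 3 lysates, for WT, G298S and YFP. The *stj* IPs of the TDP-43 lysates (81.9 to 153 CPM) lie above those of YFP (20.7 to 36.0 CPM), and the *para* and *cac* IPs of the 3 genotypes overlap.

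*na* encodes the pore of the sodium leak channel, the fly counterpart of mammalian NALCN, and *unc80* a large protein of its complex. *na* had the lowest input level per kb of exon and was called in all 3 IPs, with log2FCs of 1.31 (SE 0.32, adjusted *p* = 0.00533) for WT, 1.03 (SE 0.32, adjusted *p* = 0.0283) for G298S and 1.46 (SE 0.32, adjusted *p* = 0.00371) for YFP. In G298S, *na* was no longer called without G298S-503, without G298S-506 or without G298S-203. *unc80* had 21.3, 23.5 and 13.8 CPM in the IPs of WT-502, WT-505 and WT-202, against 14.4, 21.4 and 25.1 CPM in the inputs. The IPs of G298S-503, G298S-506 and G298S-203 held 13.9, 22.0 and 21.3 CPM, against 14.0, 13.9 and 16.7 CPM in the inputs. It was the one member called in none of the IPs over input, with log2FCs of -0.12 (SE 0.34), 0.29 (SE 0.35) and -0.59 (SE 0.35) for WT, G298S and YFP. The value for WT was above 0 without WT-202 (0.29).

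WT-502 and YFP-902 stood apart from the other lysates of their genotype over most members. WT-502 had the highest log2 ratio of IP to input of the WT lysates for all 9 members (median 1.97, beside 1.16 in WT-505 and 0.62 in WT-202), and YFP-902 the lowest of the YFP lysates for 8 of 9 (median 0.47, beside 1.59 in YFP-901 and 1.71 in YFP-201). In G298S the highest ratio was in G298S-503 for 5 members, in G298S-506 for 3 and in G298S-203 for 1. Without WT-502 the count for WT was 3 (*para*, *cac* and *stj*), with 6.79% of all genes called. Without G298S-503 that for G298S was 2 (*cac* and *stj*), with 4.93% of all genes called. Without YFP-901 (7.52% of all genes) or without YFP-201 (8.20%) the YFP count was 5, with *Ca-alpha1D* and *Ca-alpha1T* no longer called. Each of these shares was below that with all lysates.

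To determine whether TDP-43 recovered more of these mRNAs than YFP alone, the log2FC of the YFP IP was subtracted in the same model as an interaction. No member was called in either direction with either variant. Among all genes, 1.26% were called higher and 0.0542% lower in WT, and 0.348% higher and 0.371% lower in G298S. At an unadjusted *p* below 0.05, 1 member was higher and none lower in WT, and 1 was higher and 2 lower in G298S, where 12.3% and 13.4% of all genes passed in either direction. DESeq2 called *stj* higher in WT and no other member with either variant. Both differences use the same YFP libraries, so they are not independent of each other.

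*stj* had the highest positive difference of the members with each variant, while in G298S the negative differences of *Ca-alpha1T* and *cac* were larger in size. Its log2 difference was 1.33 (SE 0.36, adjusted *p* = 0.0962, edgeR) in WT and 1.02 (SE 0.36, adjusted *p* = 0.198) in G298S. Its ratios of IP to input did not overlap between the TDP-43 lysates of either variant and the YFP lysates, as described above. Under 17 alternative settings the difference for WT lay between 1.06 and 2.96, with adjusted *p* from 4.92e-04 to 0.267, and that for G298S between 0.78 and 2.68, with adjusted *p* from 0.0045 to 0.619. Among the lysates of the third label prefix it was 0.87 and 0.60. With 1 lysate per genotype there this has no test.

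Except for *Ca-alpha1D* in WT, the pore subunits had values below 0 in the comparison with input, none of them called. *cac* had a difference of -0.98 (SE 0.51, adjusted *p* = 0.467) in WT and -1.08 (SE 0.51, adjusted *p* = 0.379) in G298S. *Ca-alpha1T* had -0.87 (SE 0.55, adjusted *p* = 0.56) and -1.37 (SE 0.55, adjusted *p* = 0.27), *NaCP60E* -0.55 and -0.85 and *tipE* -0.75 and -0.87. *para* (-0.11 and -0.77), *na* (-0.14 and -0.42) and *Ca-alpha1D* (0.31 and -0.21) were nearer to 0 in WT, and their signs changed with the processing. *unc80*, which was called in no IP, had 0.47 (SE 0.49) and 0.88 (SE 0.49). The median of the members was -0.14 in WT and -0.77 in G298S, beside -0.003 and -0.02 over all genes. Within the third label prefix *cac* had -1.49 and -0.999, *Ca-alpha1T* -1.15 and -1.38 and *para* -0.72 and -0.69, while *Ca-alpha1D* and *unc80* were below 0 in WT there (-0.71 and -0.93).

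**Figure D3:**
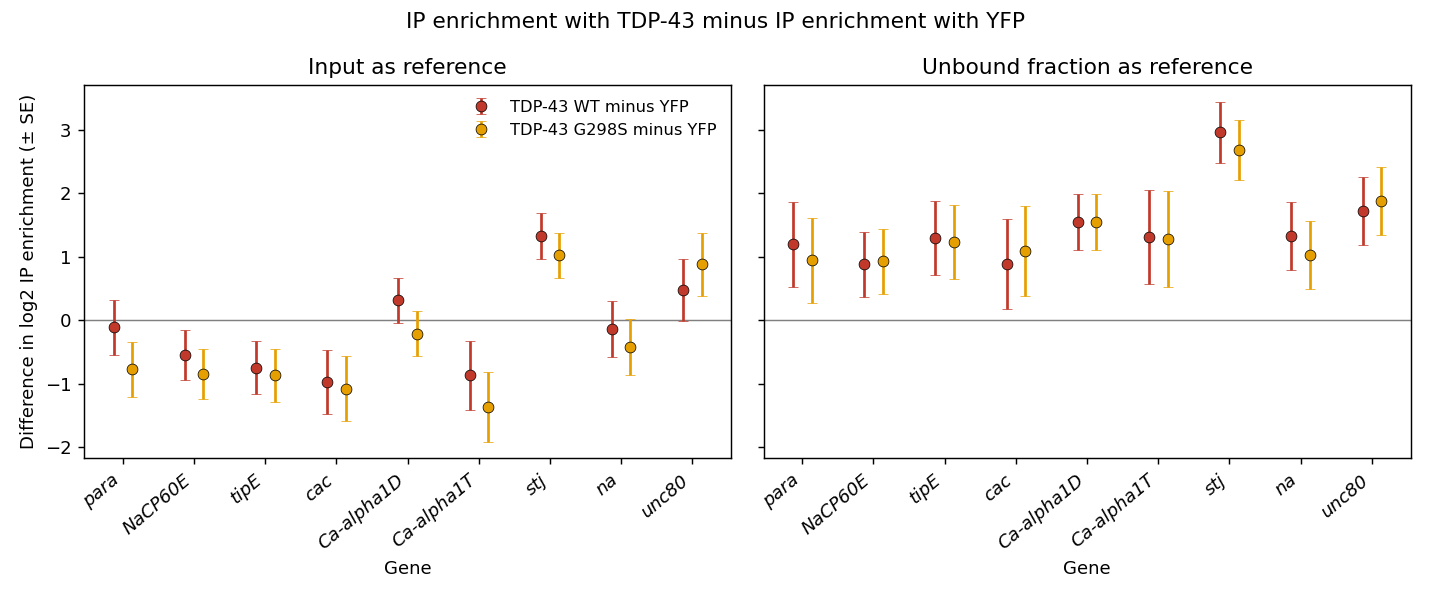
Log2 IP enrichment with TDP-43 minus that in YFP (y axis, bars are ± 1 SE of the model) for the 9 genes (x axis), for WT and G298S, with the input (left) or the unbound fraction (right) as the reference of the IP. With the input, *stj* has the highest values (1.33 and 1.02) and *Ca-alpha1T* (-1.37) the lowest, whereas with the unbound fraction all 18 values lie above 0.

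The direction depended on the reference. When the IP was compared with the unbound fraction in place of the input, all 9 members were called higher for each TDP-43 variant (15.8% of all genes for WT, 14.9% for G298S), and in YFP only *cac* was (5.68% of all genes). In the interaction with this reference *stj* was called with both variants, at 2.96 (SE 0.48, adjusted *p* = 4.92e-04) and 2.68 (SE 0.48, adjusted *p* = 0.0045), and *Ca-alpha1D* in WT at 1.54 (SE 0.44, adjusted *p* = 0.046), against backgrounds of 4.10% in WT and 1.60% in G298S. The differences of *cac* were then 0.88 (SE 0.70) and 1.10 (SE 0.71), not called. In the unbound fractions over the inputs, all 9 members had log2FCs below 0 with TDP-43, some of them called. In YFP the log2FCs were above 0 for most members, but none was called, as given below.

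The WT and G298S variants were compared with each other by the same kind of interaction. No member differed, where 0.263% of all genes did at an adjusted *p* below 0.05, and none passed an unadjusted *p* of 0.05 or was called by DESeq2. The log2 difference of WT minus G298S ranged from -0.41 (*unc80*, SE 0.49) to 0.66 (*para*, SE 0.43), and it was above 0 for 8 of 9 members. *stj* had 0.31 (SE 0.35) and *cac* 0.10 (SE 0.51). With standard errors of 0.35 to 0.54, differences of about this size could not be resolved with 3 lysates per genotype.

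Genes that work with these channels were read in the same contrasts. Of 8 sodium channel accessory subunits and regulators of *para* mRNA, *pum*, the translational repressor Pumilio, was enriched in all 3 IPs (log2FC 2.06, 1.33 and 1.46 for WT, G298S and YFP), and no other gene of the list was called with TDP-43, whereas 5 of 8 were in YFP, led by *Teh1* (2.17) and *Teh2* (1.71), which encode relatives of TipE. Of 8 calcium channel subunits and regulators, 3 were enriched in the TDP-43 WT IP, 2 in that of TDP-43 G298S, where *stac* was lower (log2FC -1.04), and 2 in that of YFP, led by the alpha2delta gene *stol* (2.91). The genes *Rgk1* and *Rgk3* encode small GTPases of the RGK family, whose mammalian members inhibit voltage-gated calcium channels, and both had a larger enrichment in WT than in YFP (difference 1.40, SE 0.24, adjusted *p* = 0.00596, and 2.40, SE 0.45, adjusted *p* = 0.0103). No other gene of these related lists, potassium channels included, was called in that interaction, and none at all in the one for G298S. Among the cell type markers, 2 of 8 Kenyon cell markers were called higher in each interaction, and 1 and 2 of 7 glia markers lower in the WT and G298S interactions.

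All 5 active zone partners of Cac (*Rim*, *Rbp*, *brp*, *Fife* and *unc-13*) were enriched in WT and in YFP, and *Fife* alone in G298S (log2FC 1.27, SE 0.28, adjusted *p* = 0.00429). No gene of the leak channel complex (*unc79* and *Mid1*) was called in any IP. Among 7 genes of calcium stores and extrusion, *SERCA*, the endoplasmic reticulum calcium pump, was lower in WT (log2FC -1.14), *Calx*, the sodium-calcium exchanger, higher in YFP (1.36) and *Stim* lower in YFP (-1.01). By the adjusted *p* alone, without the log2FC threshold, 2 genes of this list were higher and 2 lower in each of the 3 IPs. Of 11 voltage- and calcium-gated potassium channel genes, 5 were enriched in WT, 3 in G298S and 8 in YFP, with medians of 0.97, 0.78 and 1.44. By these medians the potassium channels had the same order of genotypes as the sodium and calcium channels, whose medians were 1.31, 0.81 and 1.46. Gene by gene the order of WT and YFP was less clear. In WT minus YFP the potassium channels had a median of 0.19, with 6 of 11 above 0, beside -0.14 and 3 of 9 for the members. In G298S minus YFP they had -0.52, with 2 of 11 above 0, beside -0.77 and 2 of 9. None of these differences was called.

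The levels of the channels before the IP were compared in the inputs. Per kb of exon, *tipE* was the most abundant member over the 9 inputs (6.66 ± 2.72 CPM per kb, SD), followed by *stj* (4.71 ± 1.48), *NaCP60E* (4.21 ± 1.27), *Ca-alpha1D* (2.56 ± 0.73), *Ca-alpha1T* (2.35 ± 1.04), *cac* (1.85 ± 0.62), *unc80* (1.59 ± 0.47), *para* (1.37 ± 0.43) and *na* (0.87 ± 0.18). The neighbours *stj* and *NaCP60E*, *Ca-alpha1D* and *Ca-alpha1T*, *cac* and *unc80*, and *unc80* and *para* differed by less than the SD of their difference over the inputs. These levels divide by all annotated exons, so a gene with many alternative exons such as *para* reads low.

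All 9 members had a higher mean in the inputs of both TDP-43 genotypes than in those of YFP, except that *unc80* in G298S fell below YFP with library sizes alone (log2FC -0.27) or without YFP-201 (-0.18). Against YFP, 3 of 9 were called higher in WT (*tipE*, *Ca-alpha1T* and *stj*), where 7.58% of all genes were, and 5 of 9 in G298S (*para*, *NaCP60E*, *tipE*, *Ca-alpha1D* and *Ca-alpha1T*), where 15.4% were, at an adjusted *p* below 0.05. No member was lower. *tipE* had 25.2, 43.7 and 25.6 CPM in the inputs of WT-502, WT-505 and WT-202 and 37.4, 33.9 and 35.5 CPM in the G298S-503, G298S-506 and G298S-203 inputs, against 15.6, 15.3 and 12.5 CPM in YFP-901, YFP-902 and YFP-201. No TDP-43 input overlapped the YFP inputs for this gene, with log2FCs of 1.17 (SE 0.30, adjusted *p* = 0.0191) and 1.33 (SE 0.30, adjusted *p* = 0.00506). *Ca-alpha1T* had 27.3, 53.5 and 27.7 CPM in WT and 40.2, 42.5 and 38.8 CPM in G298S, against 17.6, 18.2 and 12.4 CPM in YFP. Its groups did not overlap either, with log2FCs of 1.21 (SE 0.39, adjusted *p* = 0.048) and 1.36 (SE 0.39, adjusted *p* = 0.018).

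The other members had log2FCs of 0.47 (*na*) to 0.95 (*cac*) in WT and 0.13 (*unc80*) to 0.97 (*cac*) in G298S. Within the third label prefix *tipE* was higher by 1.03 and 1.498 and *Ca-alpha1T* by 1.15 and 1.64 on the log2 scale. Between the TDP-43 WT and TDP-43 G298S inputs no member differed, where 0.248% of all genes did, and none did at an unadjusted *p* below 0.05 or by DESeq2. Of the related lists, 3 of 5 active zone partners were higher in WT than in YFP and 5 of 5 in G298S, beside 1 and 5 of 8 genes of the sodium channel list, 2 and 1 of 8 of the calcium channel list and 3 and 4 of 11 potassium channel genes, where 1 other was lower in G298S. Of the calcium store genes 0 and 1 of 7 were higher, and neither gene of the leak channel complex was.

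Markers of cell types moved with these inputs. Of 7 neuron markers, 3 were higher in WT and 6 in G298S than in YFP (summed level 1528 to 2580 and 2246 to 2373 CPM, against 968 to 1216 CPM, none at 0), and of 8 Kenyon cell markers 2 and 5 were. Of 7 photoreceptor markers, 2 were lower in WT and 6 in G298S. The mitochondrial large rRNA took 25.7% to 33.9% of the counts in TDP-43 WT inputs and 43.4% to 45.1% in TDP-43 G298S inputs, against 24.5% to 26.9% in YFP inputs. Their part in the channel differences was not tested. In these bulk samples more cells of a type and more RNA per cell cannot be told apart.

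The input counts changed as single lysates were left out, as did the share of all genes called higher. In WT the count was 0 without WT-505 (5.41% of all genes), 2 without YFP-902 (3.10%) and 5 without WT-502 (6.79%). It was 1 (*tipE*) without WT-202 (3.02%), G298S-503 (5.22%), G298S-506 (4.46%), G298S-203 (3.86%) or YFP-201 (15.1%). In G298S the count was 1 (*tipE*) without G298S-506 (9.43%), G298S-203 (8.54%) or YFP-201 (21.9%) and 3 without G298S-503 (12.4%).

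**Figure D4:**
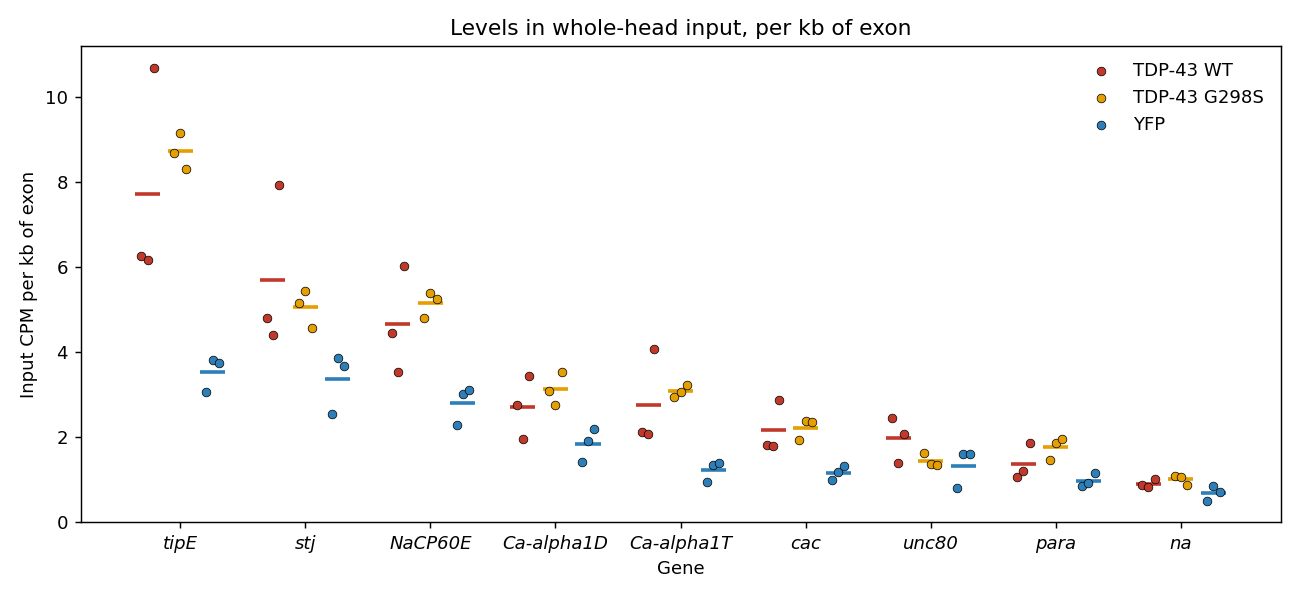
CPM per kb of exon (y axis) in whole-head input for the 9 genes (x axis, ordered by mean level), 1 point per lysate and a bar at the mean of 3 lysates, for WT, G298S and YFP. For *tipE* and *Ca-alpha1T* every TDP-43 input lies above every YFP input.

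The unbound fraction, which holds the RNA left after the beads were removed, was compared with the input of the same genotype. Some of the channel mRNAs were lower in the unbound fraction than in the input with TDP-43, and none was called in YFP. Members called lower were *tipE*, *stj* and *unc80* in WT (3 of 9, against 7.80% of 13349 genes tested) and *NaCP60E*, *tipE*, *Ca-alpha1D* and *stj* in G298S (4 of 9, against 8.79%), at an adjusted *p* below 0.05. All 9 members had a negative log2FC with each variant, with medians of -0.95 and -1.16, beside 0.08 and 0.14 over all genes. In YFP no gene was called (0.00% of all genes, with 4.85% of them below an unadjusted *p* of 0.05), no member passed an unadjusted *p* of 0.05, and the median of the members was 0.47. DESeq2 called no member and 0.517% of all genes there.

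*stj* was lower in every TDP-43 lysate. Its unbound fractions held 8.48, 21.0 and 8.75 CPM in WT-502, WT-505 and WT-202 and 13.1, 6.16 and 14.8 CPM in G298S-503, G298S-506 and G298S-203, against the inputs given above. The unbound fractions held 20.1, 22.1 and 22.2 CPM in YFP-901, YFP-902 and YFP-201, close to the inputs of 24.3, 23.1 and 16.0 CPM. The log2FC was -1.49 (SE 0.34, adjusted *p* = 0.00824) in WT, -1.47 (SE 0.34, adjusted *p* = 0.0235) in G298S and 0.03 (SE 0.33) in YFP.

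*tipE* had 6.40, 20.7 and 9.48 CPM in the unbound fractions of WT-502, WT-505 and WT-202 and 17.8, 5.27 and 17.6 CPM in those of G298S-503, G298S-506 and G298S-203. The YFP unbound fractions held 21.1, 16.7 and 25.7 CPM in YFP-901, YFP-902 and YFP-201. Its log2FC was -1.36 (SE 0.42, adjusted *p* = 0.0296) in WT, -1.38 (SE 0.42, adjusted *p* = 0.0304) in G298S and 0.54 (SE 0.41) in YFP. *para* had the smallest shifts, at -0.46 (SE 0.47) and -0.83 (SE 0.48), and was higher in the unbound fraction than in the input in WT-505 and G298S-203.

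**Figure D5:**
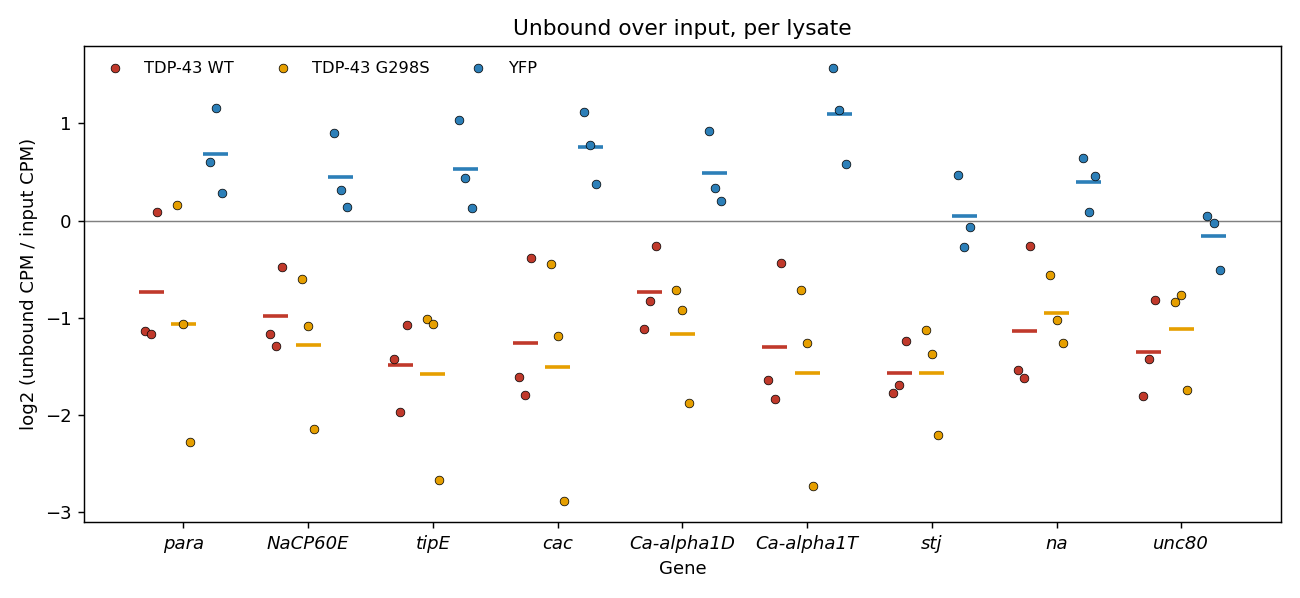
Log2 ratio of unbound CPM to input CPM (y axis) for the 9 genes (x axis), 1 point per lysate and a bar at the mean of 3 lysates, for WT, G298S and YFP. The TDP-43 lysates lie below 0 except *para* in WT-505 (0.09) and G298S-203 (0.16), and YFP-201 lies above 0 for all 9 genes.

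The shift in the unbound fraction was also compared between genotypes, a comparison chosen after the values were seen. Relative to YFP, *tipE* shifted lower in WT (1 of 9, against 3.09% of all genes), and *NaCP60E*, *tipE*, *Ca-alpha1D*, *Ca-alpha1T* and *stj* did in G298S (5 of 9, against 8.79%). The difference for *tipE* was -1.90 (SE 0.59, adjusted *p* = 0.0486) and -1.92 (SE 0.59, adjusted *p* = 0.0367), and *Ca-alpha1T* had the largest in G298S, -2.46 (SE 0.76, adjusted *p* = 0.0374). All 9 members were below 0 with both variants. Markers of neurons moved the same way, with summed levels in the unbound fractions of 668 to 1595 CPM in WT and 578 to 1399 CPM in G298S, against 1325 to 2239 CPM in YFP. Of 7 neuron markers, 1 and 5 were called lower relative to YFP. Of the potassium channels 2 and 5 of 11 were, with medians of -1.64 and -1.79, beside -1.32 and -1.59 for the members. So were 1 and 4 of 8 Kenyon cell markers and 2 and 2 of 7 glia markers. The glia markers had medians of -0.25 and -0.13. The part of these genes in the shift of the channels was not tested.

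With the lysate as a block, which pairs the fractions of one lysate, more members were called lower in the unbound fraction: 6 in WT and 8 in G298S, against 13.7% and 14.6% of all genes, and relative to YFP 7 and 8, against 10.2% and 12.5%. *para* was the member not called in the unbound fraction of TDP-43 G298S. The counts without the block changed as single lysates were left out, as did the calls over all genes. Without WT-502 or without WT-202 the WT count was 1 (*stj*, where 1.79% and 1.54% of all genes were called lower) and without WT-505 it was 8 (8.02%). Without any one of the G298S lysates the G298S count was 0, with 0.00% of all genes called lower. G298S-506 had the lowest unbound levels, with a median log2 ratio to input of -2.20, beside -1.07 in G298S-503 and -0.71 in G298S-203.

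Across the 27 libraries most members followed one another. *NaCP60E* and *tipE* had the highest correlation of log2 CPM among the members (Pearson r = 0.983) and *para* and *cac* had r = 0.972. *unc80* had the lowest, from 0.444 with *cac* to 0.714 with *stj*, and *stj* and *Ca-alpha1T* had 0.819. Over all genes tested, those most like *para* were *Ten-a*, *mei-P26*, *nAChRalpha3*, *cpo* and *Rdl* (r = 0.983 to 0.977), and those most like *cac* were *GluClalpha*, *NfI*, *spen*, *VAChT* and *zfh2* (r = 0.989 to 0.982). These are descriptions over libraries that share lysates and differ in depth and fraction, and no test was made of them.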

How the data were processed

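Heads of flies with TDP-43 (WT or G298S, YFP-tagged) or only YFP in MBNs were lysed, and RNA of the input, GFP-Trap IP and unbound fraction was sequenced (3 lysates per genotype). Libraries were made with SMART-Seq HT PLUS, which does not mark strand. The authors deposited whole-number counts per gene without normalization, made, per the submitters' processing notes, with bcl2fastq 2.19.1.403, cutadapt 2.7, STAR 2.6.1d and featureCounts 1.6.3. The genome release and the strand setting are not given in the sources used here, so overlapping genes cannot be separated. Reads carried no molecular identifiers. Ensembl release 115 supplied gene symbols and exon lengths for 17425 of the 17529 identifiers, and 104 stayed unnamed.

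The test was edgeR 4.0.16 under R 4.3.3 (TMM scaling, edgeR's filter on low counts by group, quasi-likelihood test, Benjamini-Hochberg adjustment over all genes tested). The 18 IP and input libraries were fitted with 6 groups and no covariate (12921 genes). The unbound fraction was tested in a fit of all 27 libraries (13349 genes). IP contrasts and differences from YFP needed an adjusted *p* below 0.05 and a log2FC beyond 1, and the other contrasts the adjusted *p* alone. CPM used TMM factors of all 27 libraries, and log2 CPM a prior count of 2. The script was tested on simulated data.

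Fractions with one number come from one lysate, of which the study kept a portion as input. After subtraction of group means, log2 CPM of IP and input of a lysate correlated across genes at 0.06 (WT-502) to 0.73, and of unbound fraction and input at 0.68 to 0.92. The model with the lysate as a block was an alternative, since the study names no block. The others were DESeq2 1.42.0, library sizes alone or DESeq2's size factors in edgeR, all genes with a count, no mitochondrially encoded or rRNA genes, all libraries in the IP fit, the unbound fraction as the reference, each lysate left out, and the third label prefix alone.

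The members, the lists of related genes and the cell type markers were chosen with earlier results of these data known. All members are named. Of the related lists, counts are given and called genes are named (at most 4 per list, largest change first), potassium channels only as counts. For *para* and *cac* the 5 genes with the highest Pearson r are named. No replicates agreed within counting noise (chi-square per degree of freedom 9.09 or more). The lysates come from separate pools of flies.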

Additional observations from a re-analysis of the deposited data

Results flagged for a closer look

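The change between the unbound fraction and the input differed from that with YFP, by an interaction in edgeR with an adjusted *p* below 0.05, for *tipE* with TDP-43 WT (log2 difference -1.90) and, with TDP-43 G298S, for *Ca-alpha1T* (-2.46), *tipE* (-1.92), *NaCP60E* (-1.60), *Ca-alpha1D* (-1.59) and *stj* (-1.49). The adjusted *p* values lay between 0.0322 and 0.0486 (edgeR). None of these differences was called without YFP-901, YFP-201, G298S-503 or G298S-203. Calls over all genes also changed: in the TDP-43 G298S unbound fraction over input, leaving out any G298S lysate left no gene called lower, as described above. Those with TDP-43 G298S were also lost without G298S-506, and that of *tipE* with TDP-43 WT without WT-502, WT-202 or YFP-902. Without YFP-902, *Ca-alpha1D* and *Ca-alpha1T* were the members called with TDP-43 G298S.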

How the results depend on the processing

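Of 1746 member values recomputed under up to 18 settings, 1477 kept their direction and their side of the threshold or moved by less than the spread of the lysates. Library sizes alone raised the median IP log2FC of all genes by 0.37 in TDP-43 WT, 0.88 in TDP-43 G298S and 0.20 in YFP. This setting gave 8 enriched members in TDP-43 WT, 9 in TDP-43 G298S and 7 in YFP (with 17.1%, 30.6% and 13.1% of all genes). It also gave 1 and 2 above YFP (1.77% and 11.2%), 1 in the TDP-43 G298S inputs, 5 lower in the TDP-43 WT unbound fraction, and 2 and 3 lower there relative to YFP. The unbound fraction as reference gave 9, 9 and 1 enriched in the TDP-43 WT, TDP-43 G298S and YFP IPs (15.8%, 14.9% and 5.68% of all genes). It gave 2 and 1 above YFP (4.10% and 1.60%). DESeq2 gave 1 above YFP with TDP-43 WT (1.60% of all genes) and 6 in its inputs (17.3%, against 7.58% in edgeR). It gave 5 and 8 lower in the TDP-43 WT and TDP-43 G298S unbound fractions, and 7 and 8 relative to YFP. In the TDP-43 WT unbound fraction it called 15.3% of all genes lower, against 7.80% in edgeR. All libraries in the fit gave 5, 4 and 5 enriched in the TDP-43 WT, TDP-43 G298S and YFP IPs (11.0%, 8.29% and 8.86% of all genes). That fit gave 0 and 1 in the TDP-43 WT and TDP-43 G298S inputs (3.37% and 12.7% of all genes). For TDP-43 WT relative to YFP in the unbound fraction, DESeq2 size factors gave 2, no filter 2 and leaving out mitochondrially encoded and rRNA genes 0. The lysate as a replicate block gave 6 and 8 lower in the TDP-43 WT and TDP-43 G298S unbound fractions and 7 and 8 relative to YFP, and it changed no other call. The cause of these changes was not tested.

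Leaving out 1 lysate gave 3 to 7 enriched members in TDP-43 WT IPs, 2 to 4 in TDP-43 G298S IPs and 5 to 7 in YFP IPs. The shares of all genes were then 6.79% to 10.6%, 4.93% to 7.85% and 7.52% to 10.9%. In the TDP-43 WT and TDP-43 G298S inputs 0 to 5 and 1 to 5 were higher, with 3.02% to 15.1% and 8.54% to 21.9% of all genes. In their unbound fractions 1 to 8 and 0 to 6 were lower, and 0 to 7 and 0 to 6 relative to YFP. For the TDP-43 WT unbound fraction the share was 1.54% without WT-202 and 8.02% without WT-505.

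These values changed sign. In the WT IP *unc80* had 0.26 with library sizes alone and 1.25 with the unbound fraction as reference, and -0.38 to 0.29 as lysates were left out. For WT minus YFP, *para* had 0.064 with library sizes alone, 0.031 with all libraries and -0.48 to 0.21 as lysates were left out, and *na* had 0.035, 0.0024 and -0.49 to 0.14 in the same order. *Ca-alpha1D* had -0.067 to 0.58 in WT and -0.47 to 0.03 in G298S as lysates were left out. With the unbound fraction as reference WT minus YFP was 1.19 for *para*, 0.88 for *NaCP60E*, 1.29 for *tipE*, 0.88 for *cac*, 1.31 for *Ca-alpha1T* and 1.32 for *na*, and G298S minus YFP 0.95 for *para*, 0.93 for *NaCP60E*, 1.23 for *tipE*, 1.09 for *cac*, 1.54 for *Ca-alpha1D*, 1.28 for *Ca-alpha1T* and 1.02 for *na*. For G298S minus YFP with library sizes alone *Ca-alpha1D* had 0.46 and *na* 0.26. In the G298S input *unc80* had -0.27 with library sizes alone and -0.18 to 0.33 as lysates were left out. In the YFP unbound fraction *stj* had -0.31 with library sizes alone, and leaving out lysates gave -0.16 to 0.18 for *stj* and -0.29 to 0.015 for *unc80*.

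Depth limits the G298S-506 unbound fraction most for the members, with 711 counts over all 9 and 32 for *na*. The lowest member count in an IP was 33, in G298S-503.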
